A study of Mus musculus with 21 samples.

Results

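Endogenous microglia, the brain's own macrophages in mice that had received no transplanted cells, were compared between animals after kainic acid seizures and animals given saline. All libraries of these untransplanted mice were used, 3 after seizure and 2 after saline, which made 5 of the 21 libraries in the study. The cells were sorted by FACS from brain, and the study places the seizure samples 5 days after kainic acid, a glutamate receptor agonist that provokes prolonged seizures. All 5 libraries came from mice of the genotype CX3CR1-CreER+/-; CSF1R fl/fl, so that the saline controls carried the same alleles as the seizure mice. In that genotype a drug-inducible Cre is expressed from the fractalkine receptor locus, which is active in microglia and in other mononuclear phagocytes, and Csf1r is flanked by Cre target sites. Whether Cre was induced in these mice, their exact age and any pooling of animals are not given in the sources used here. Every seizure library belonged to batch 1 and every saline library to batch 2, so the effects of batch and of seizure cannot be told apart in any difference described here.

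Microglia arise from the yolk sac, live long in the brain and depend on signals through the CSF1 receptor. At rest they express a set of surface receptors and transcription factors that blood monocytes and other macrophages largely lack, such as P2ry12, Tmem119 and Sall1. After injury they can lower these genes and raise genes of inflammation, lysosomes and lipid handling, while monocytes and neutrophils may enter from blood and macrophages of the meninges and vessels are often carried along in a sort.

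The saline libraries held 39729702 and 36528863 counts, and the seizure libraries held 14876770, 73841998 and 18663656. Genes with at least 1 count numbered 19746 and 18985 after saline and 14383, 17591 and 15176 after seizure. With each library thinned to the smallest total of the study (6571262 counts), the saline libraries still had more genes, 16956 and 16619 against 13203, 13399 and 13864. The log2 level correlated at 0.938 between the saline libraries and at 0.827 to 0.856 between the seizure libraries. Pairs of a seizure and a saline library lay at 0.853 to 0.892, mostly above the pairs of seizure libraries. Seizure libraries 1 and 3 carried an F in their names. Their 4 Y-linked genes summed to 3.73 and 2.27 CPM (TMM-normalised counts-per-million), against 387 in seizure library 2 and 451 and 534 after saline, so sex also differed between the groups.

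The labelled cell type was met by its defining markers in every library. P2ry12, a purine receptor of resting microglia, stood at 18221 and 21861 CPM after saline and at 21114, 20383 and 12259 after seizure. The 24 homeostatic genes together took 11% and 13% of the counts after saline and 14%, 14% and 12% after seizure. In the study's transplanted monocyte-derived cells that share was 2.8% to 5.9%. All 24 were above 0 in each library, as they also were in the monocyte-derived cells, so their presence alone does not set microglia apart.

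Csf1r, the receptor targeted by the floxed allele, was present in all 5 libraries. It measured 2925 and 745 CPM after saline and 1036, 2405 and 8537 after seizure, and the groups overlapped. Its log2 difference, seizure minus saline, was 1.12 (SE 0.84, adjusted p = 0.966), and the sign was negative without seizure library 3 (-0.093). Cx3cr1, the receptor for the neuronal chemokine fractalkine whose locus carries the Cre, measured 2768 and 987 after saline and 857, 2451 and 4617 after seizure, with overlap. Its log2 difference was 0.49 (SE 0.65, adjusted p = 1), negative without saline library 2 (-0.07) or seizure library 3 (-0.18). Both genes were low in saline library 2 and seizure library 1 and highest in seizure library 3. GC-rich genes as a whole had a similar order. The mean log2 level of the 10% of genes with the highest GC content minus that of the 10% with the lowest, relative to all libraries, was 0.12 and -0.81 after saline and -0.59, 0.19 and 1.11 after seizure. The part of GC content in these levels was not tested. A count over the whole gene does not show whether the floxed stretch was removed.

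Of 57180 genes in the table, 18867 passed the low-count filter and 20 differed between seizure and saline (0.106%) at an adjusted p under 0.05. Lower after seizure were 19 genes (0.101%), and 1 was higher (0.0053%). The 19 include an oxidase subunit, lectin and adhesion receptors of myeloid cells, scaffold proteins and several noncoding or predicted transcripts. None of the 24 homeostatic microglia genes was among the 20. At an unadjusted p under 0.05, 1295 genes were lower (6.86%) and 91 higher (0.482%). Seizure and saline libraries did not overlap for 3058 genes in the lower direction (16.2%) and 936 in the higher direction (4.96%).

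Most of the lower genes were scarce. Among 7741 genes with a mean below 0 on the log2 CPM scale, 1170 (15.1%) were lower at an unadjusted p under 0.05, and 14 of the 19 called genes lay there. Among the 2549 genes with a mean of 6 or more, 14 were lower and 18 higher at that threshold. The share over all genes, set beside the lists below, thus does not allow for the level of their members. Of the called genes, Cybb was the only one with a mean above 4 on that scale. The other called genes are named here after their values were seen, apart from Clec12a and Xist, which stand in the gene lists. Clec12a is in the border macrophage list described below. Xist is in a list of 10 nuclear-retained long noncoding RNAs, of which it was the only one called (median log2 difference of the list -0.39).

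**Figure D1:**
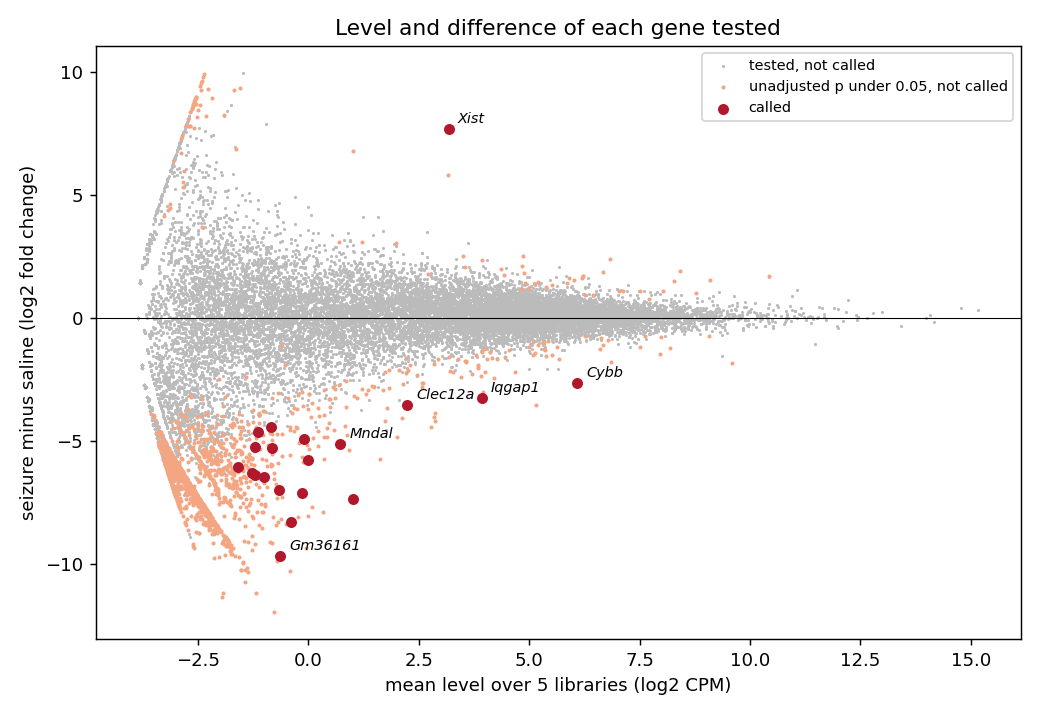
Mean level over the 5 libraries (log2 CPM, horizontal) against the log2 fold change, seizure minus saline (vertical), for each tested gene, with the 20 called genes as large red points. The slanted bands at the left are genes at or near 0 in 1 group, whose fitted fold change is not a measured size. Xist lies above 0 and the other 19 called genes below, most of them at a mean below 0.

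Cybb encodes the subunit of the NADPH oxidase of phagocytes that makes superoxide. It stood at 92.0 and 352 CPM after saline and at 42.4, 28.3 and 36.7 after seizure, a mean of 222 ± 184 (SD, n = 2) against 35.8 ± 7.11 (SD, n = 3). The groups did not overlap, and the log2 fold change was -2.63 (SE 0.49, adjusted p = 0.0257). The spread between the saline libraries was wide, and without saline library 2 the change was -1.37 and no longer called.

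Among surface receptors, Clec12a, an inhibitory lectin of myeloid cells, stood at 8.20 and 44.9 CPM after saline and at 0.968, 1.15 and 4.85 after seizure (log2 fold change -3.52, SE 0.61, adjusted p = 0.0182). Itgal, which encodes 1 of the 2 chains of the integrin LFA-1 on leukocytes, stood at 1.82 and 3.99 after saline and at 0, 0.0608 and 0.151 after seizure (-5.24, SE 0.92, adjusted p = 0.0188). Cd38, an ectoenzyme that consumes NAD, stood at 6.54 and 7.02 after saline and at 0.484, 0.167 and 0.0505 after seizure (-4.94, SE 0.69, adjusted p = 0.00251). Cd38 was alike in both saline libraries, whereas Clec12a was several times higher in saline library 2 than in saline library 1. Cd300ld, a Cd300 family receptor, was at 7.65 and 6.91 after saline and no higher than 0.0691 after seizure. The G protein-coupled receptor gene Gpr18 was at 3.64 and 6.22 and no higher than 0.0760 after seizure. Clec4n, which encodes the fungal receptor Dectin-2, was at 3.61 and 3.14 after saline and no higher than 0.258 after seizure. Thbd, which encodes thrombomodulin, was at 1.39 and 6.55 and no higher than 0.0691 after seizure.

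Mndal, a member of the interferon-inducible Ifi200 family, had the smallest p of all genes. It measured 6.28 and 22.5 CPM after saline and 0.346, 0.577 and 0.252 after seizure (log2 fold change -5.11, SE 0.68, adjusted p = 0.00251). Iqgap1, which encodes a scaffold of the actin cytoskeleton, fell from 36.3 and 91.9 to 8.29, 3.16 and 8.88 (-3.25, SE 0.62, adjusted p = 0.0281). Its relative Iqgap2 was at 5.10 and 14.9 after saline and no higher than 0.353 after seizure. The membrane raft gene Rftn1 was at 1.96 and 6.22 after saline, and the signalling adaptor gene Stap1 at 2.83 and 6.11. After seizure neither passed 0.122. Adam33, of the ADAM metalloprotease family, had 171 counts over the saline libraries and 3 over the seizure libraries, a ratio of CPM of 72.3 with a 95% counting interval of 24.3 to 354.

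The remaining lower genes were noncoding or predicted. 4930523C07Rik stood at 9.16 and 21.8 CPM after saline and at 0.0691, 0.0608 and 0 after seizure (log2 fold change -8.29, SE 1.18, adjusted p = 0.00251). Gm37900 stood at 12.7 and 13.8 and then at 0.0691, 0.137 and 0.0505 (-7.12, SE 1.09, adjusted p = 0.00479). Both were present in each saline library and nearly absent from each seizure library. Gm21188 measured 15.5 and 66.8 after saline and no more than 0.276 after seizure, and A530040E14Rik measured 1.35 and 3.77 and no more than 0.152. Gm36161 had 1682 counts over the saline libraries, 1471 of them in saline library 2, and 3 over the seizure libraries. Its ratio of CPM was 711 with a 95% counting interval of 243 to 3450. These intervals cover counting error only.

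The called gene that was higher, Xist, is the RNA that coats the inactive X chromosome of female cells. It measured 0.520 and 0.928 CPM after saline and 152, 2.28 and 297 after seizure. It was high in the libraries whose Y-linked genes were near 0, seizure 1 and 3, and low in seizure 2. Without both of these libraries the fitted log2 fold change of Xist was 1.66, against 7.69 with them, while that of Mndal was -4.63, against -5.11. That fit sets 1 seizure library against 2 saline libraries, and the lone library is assumed to vary like the other groups. It called 0 genes, with 589 lower and 121 higher at an unadjusted p under 0.05, and with so few samples a lost call does not show a smaller change.

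**Figure D2:**
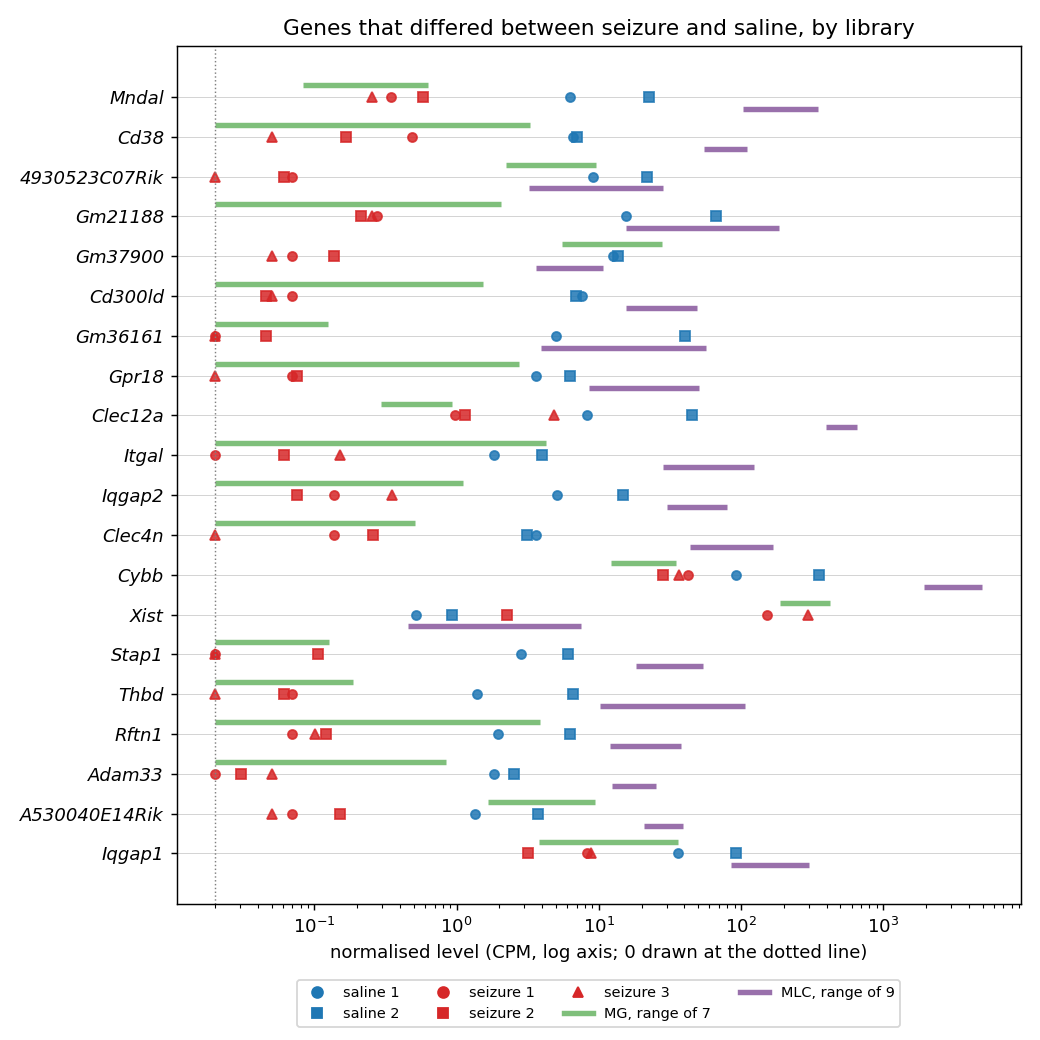
Level of each called gene in the 5 libraries of endogenous microglia (points, CPM on a log axis), in order of p, with the range over transplanted microglia (MG, green, 7 libraries) and transplanted monocyte-derived cells (MLC, purple, 9 libraries). For the 19 lower genes the blue saline points lie right of all red seizure points, and the purple range of Cybb (1923 to 4961 CPM) lies far to the right of both.

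The 20 calls rested on the spread estimated over all 21 libraries. Fitted on the 5 libraries alone, edgeR called 0 genes in either direction, with 955 lower and 84 higher at an unadjusted p under 0.05. DESeq2 on all libraries called 179 lower and 39 higher, among them all 20. Most DESeq2 calls on simulated data were false. Those counts were drawn with the spread that edgeR had estimated, so they cannot decide whether the DESeq2 calls here are false. Limma-voom called 88 lower and 1 higher, which included 8 of the 19 lower genes and not Xist. Mndal had an adjusted p of 0.2 there. With seizure library 1, 2 or 3 left out singly, the lower calls numbered 4, 10 and 10, which includes genes not called before. Of the 20 calls, 3, 9 and 7 were kept. The 5 genes that remained without saline library 2 were Mndal, Cd38, 4930523C07Rik, Gm37900 and Cd300ld. Each of the 20 genes kept its direction in all 16 alternative fits. That is no separate support, because seizure and saline libraries did not overlap for any of them. Leaving out libraries could therefore hardly reverse a direction, and the other fits used the same libraries.

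Transcripts of other blood cells differed between the libraries. Summed over 12 genes of blood monocytes, the level was 172 and 1178 CPM after saline and 39.3, 17.8 and 154 after seizure. Ccr2, the chemokine receptor by which monocytes leave the marrow, stood at 73.1 and 307 after saline and at 23.2, 4.98 and 21.05 after seizure (log2 difference -3.54, SE 1.54, adjusted p = 0.675). Ly6c2, a surface marker of classical monocytes, stood at 11.2 and 71.1 after saline and at 0, 0.0760 and 2.88 after seizure. Plac8, abundant in monocytes, stood at 10.98 and 85.4 and at 2.35, 0.106 and 2.62 (-4.84, SE 1.41, adjusted p = 0.513). Of 11 monocyte genes tested, 0 were called, and the median log2 difference was -4.84 beside a median of 0 over all genes tested. At an unadjusted p under 0.05, 9 were lower and 0 higher (6.86% and 0.482% over all genes tested). Ccr2, Ly6c2 and Plac8 were each highest in saline library 2, and their groups did not overlap. Vcan, a matrix proteoglycan, had 400 counts over the saline libraries and 0 over the seizure libraries, at least 169-fold lower against a floor of 3 counts over the group.

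Most genes of macrophages at the brain's borders also had lower levels after seizure. Of 20 genes, 1 was called (Clec12a), with a median log2 difference of -2.51. At an unadjusted p under 0.05, 12 were lower and 0 higher (6.86% and 0.482% over all genes tested). Mrc1, the mannose receptor, measured 43.5 and 33.8 CPM after saline and 8.43, 2.34 and 19.4 after seizure (-1.95, SE 0.75, adjusted p = 0.675). F13a1, which encodes a clotting factor subunit, measured 86.5 and 172 after saline and 0.207, 0.137 and 17.7 after seizure (-4.43, SE 1.76, adjusted p = 0.675). The summed level of the list was 977 and 1356 after saline and 958, 680 and 729 after seizure. Its largest member was Maf, a transcription factor that microglia also express. Over the 16 alternative fits the median of the border macrophage list lay between -3.37 and -1.92. That of the monocyte list lay between -8.20 and -2.70, with -2.70 without saline library 2 and -7.89 without seizure library 3.

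Neutrophil genes differed widely between libraries of the same treatment. S100a8, a calcium-binding alarmin, measured 8.55 and 246 CPM after saline and 0.553, 1.52 and 171 after seizure. Ngp, a granule protein gene, measured 37.2 and 888 after saline and 3.39, 9.07 and 317 after seizure. Both were high in saline library 2 and seizure library 3, and lower in seizure libraries 1 and 2 than in either saline library. Of 9 neutrophil genes tested, 0 were called, with a median log2 difference of -1.34. That median lay between -6.45 and 1.75 over the 16 alternative fits. At an unadjusted p under 0.05, 1 was lower, the collagenase gene Mmp8 (6.86% over all genes tested). Hba-a2, a haemoglobin gene, measured 8.05 and 235 after saline and 4.77, 99.6 and 47.1 after seizure. The plasma cell genes Igkc and Jchain came almost wholly from saline library 2, with Igkc at 0.0945 and 22.1 and Jchain at 0.118 and 19.8. Both were at 0 in every seizure library, at least 344-fold and 308-fold lower against the same floor. Ighm, the largest member of the B and plasma cell list, overlapped, at 901 and 808 after saline and 600, 1251 and 836 after seizure. The summed list measured 1034 and 1063 after saline and 758, 1459 and 971 after seizure. Genes of T and NK cells summed to at most 1.12 CPM in any library, and Cd3e and Trac were at 0 in all 5, as was the neutrophil gene Mpo. A fit without saline library 2 and seizure library 3, chosen after seeing the data, sets 1 saline library against 2 seizure libraries. In it the log2 fold change was -3.69 for Mndal and -1.38 for Cybb, and the monocyte median was -6.81. It called 0 genes, with 737 lower and 43 higher at an unadjusted p under 0.05, and the lone saline library limits what it can call. The part of other cells in the 20 calls was not tested. In sorted bulk samples, fewer cells of a type and less RNA per cell cannot be told apart.

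**Figure D3:**
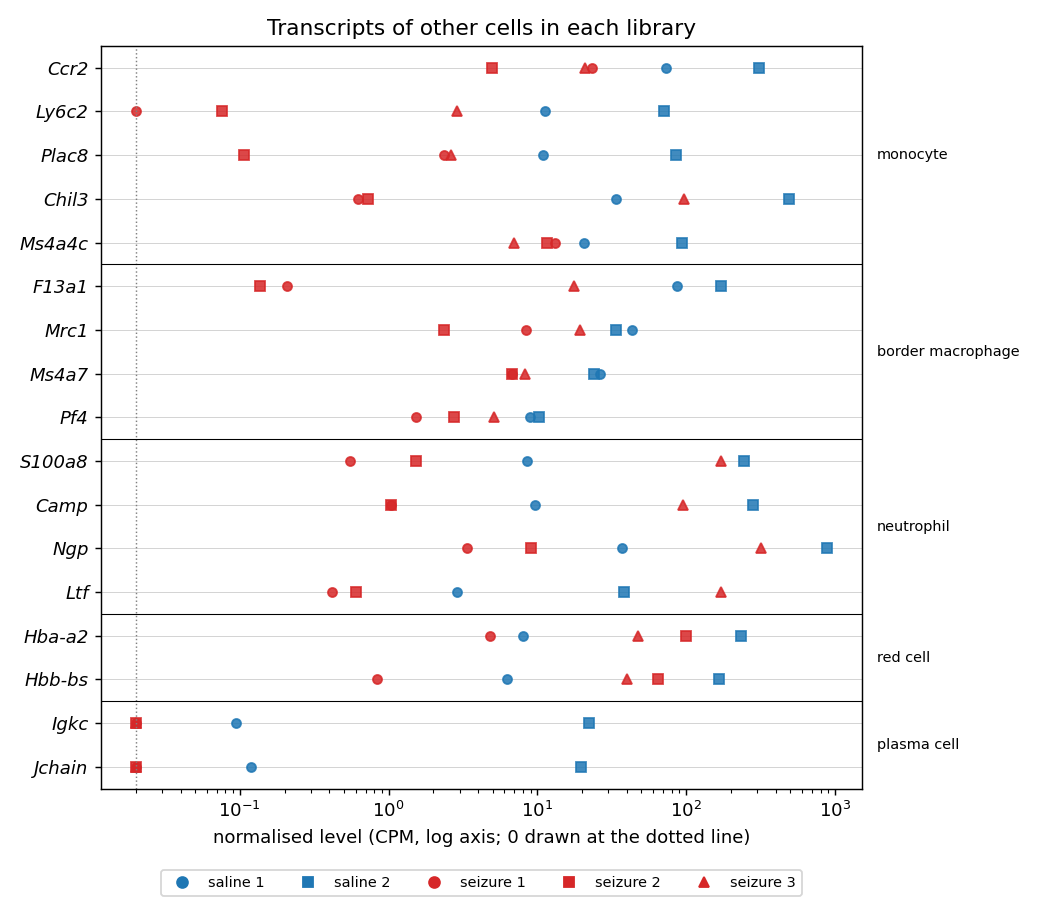
Level of marker genes of other cells in each library (CPM on a log axis, blue for saline and red for seizure). Saline library 2 (blue squares) is highest for the monocyte genes, and saline library 2 and seizure library 3 (red triangles) are high for the neutrophil genes.

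No homeostatic gene of microglia passed the test. Of 24 tested, 0 were called and 0 were lower or higher at an unadjusted p under 0.05. Their median log2 difference was 0.33. It was 0.057 without seizure library 3, 0.097 without saline library 2 and 0.0041 without both. Without the seizure libraries named F, which include seizure library 3, it was 0.41, beside a median of -0.12 over all genes. Over the 16 alternative fits the homeostatic median stayed positive, between 0.0041 and 0.41, so that its size varied with the libraries kept. Tmem119, a surface protein of resting microglia, measured 3375 and 586 CPM after saline and 736, 2848 and 7540 after seizure. Sall1, a transcription factor that sets microglial identity, measured 273 and 113 after saline and 254, 265 and 308 after seizure. Siglech, a sialic acid receptor, was the most even, at 1258 and 1258 after saline and 1259, 1377 and 1566 after seizure. Tmem119 varied over a wide range within each treatment, in the same order of libraries as Csf1r in its lowest and highest values.

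**Figure D4:**
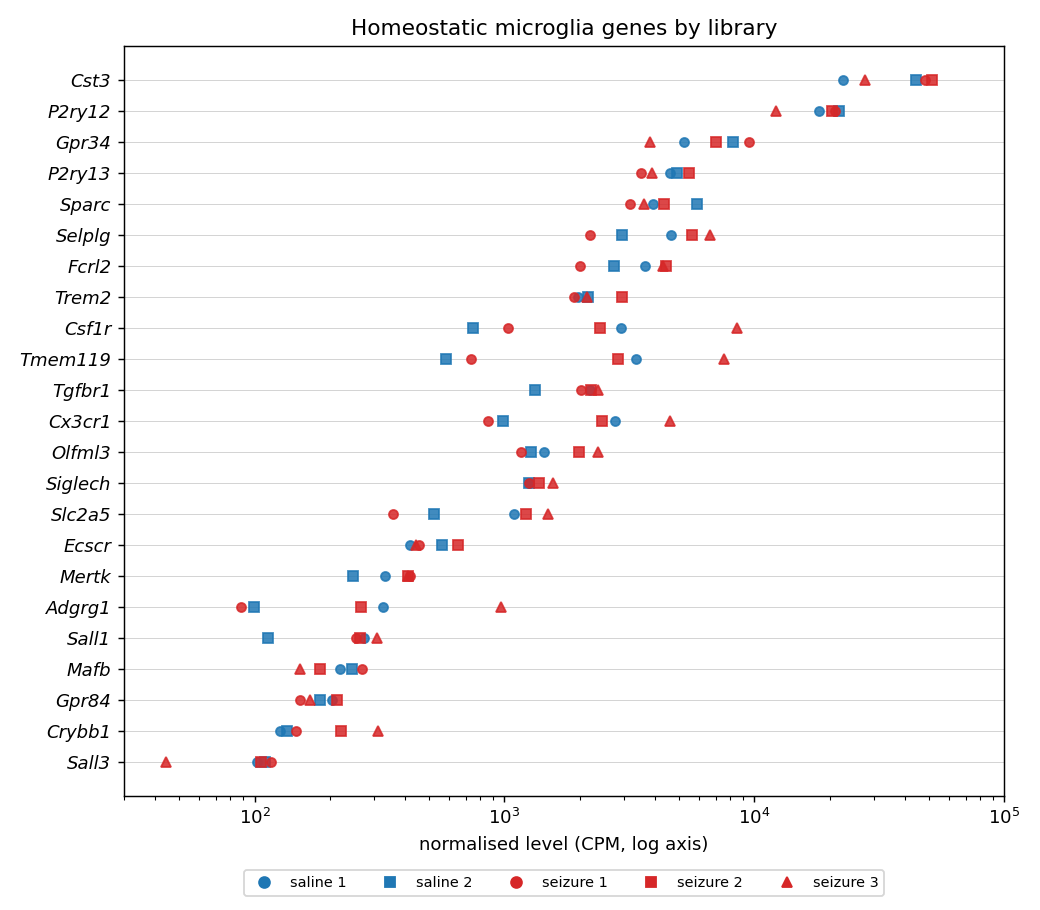
Level of 23 of the 24 homeostatic microglia genes in each library (CPM on a log axis), ordered by mean level. Blue saline and red seizure points interleave for most genes, and Csf1r and Tmem119 are spread far more widely than P2ry12 or Siglech.

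Genes that mark microglia around plaques and damage did not pass the test in either direction. Of 30 tested, 0 were called, with a median of 0.12. At an unadjusted p under 0.05, 3 were lower and 1 higher (6.86% and 0.482% over all genes tested). Apoe, the lipid carrier that marks this state, measured 48.1 and 37.7 CPM after saline and 190, 140 and 70.7 after seizure. The groups did not overlap, but the log2 difference was 1.64 with an SE of 1.09 (adjusted p = 0.880). Spp1, which encodes osteopontin, measured 12.4 and 16.4 after saline and 10.02, 21.8 and 16.4 after seizure. Fth1, the ferritin heavy chain that stores iron, measured 276 and 308 after saline and 566, 739 and 478 after seizure (1.03, SE 0.48, adjusted p = 0.675). Clec7a, the beta-glucan receptor Dectin-1, measured 39.9 and 48.3 after saline and 23.3, 8.92 and 12.5 after seizure (-1.57, SE 0.48, adjusted p = 0.578). Lgals3, a galectin of activated macrophages, measured 22.3 and 77.6 after saline and 0.207, 0.106 and 14.4 after seizure (-3.35, SE 1.69, adjusted p = 0.681). Members thus lay on both sides of 0.

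Il1b and Tnf, cytokine genes of acute inflammation, were scarce in both groups. Of 36 genes of inflammatory cytokines and NF-kB tested, 0 were called, with a median of 0.05. At an unadjusted p under 0.05, 3 of them were lower (6.86% over all genes tested). Il1b did not pass 1.44 CPM in any library and Tnf did not pass 5.10. Il6 measured 9.07 and 14.4 after saline and 20.7, 10.3 and 10.2 after seizure. Saa3, an acute phase protein gene, measured 17.4 and 16.2 after saline and 0, 0.0608 and 0.101 after seizure, with an adjusted p of 0.0691. Of 18 chemokine genes tested, 0 were called, with a median of -0.61. At an unadjusted p under 0.05, 2 of them were lower (6.86% over all genes tested). Ccl2, which attracts monocytes, measured 22.01 and 38.5 after saline and 54.6, 16.1 and 34.3 after seizure.

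Of 40 listed type I interferon response genes, 0 were called. At an unadjusted p under 0.05, 5 were lower and 0 higher (6.86% and 0.482% over all genes tested). The median of the 40 was -0.40, and it was positive without saline library 2. The Ifi200 family members Ifi211 and Ifi207 were among the 5. Mndal, a called gene of that family, was not in this list. Ifi211 measured 4.23 and 18.0 CPM after saline and 0.484, 0.365 and 0.0505 after seizure (-5.19, SE 1.24, adjusted p = 0.191). Ifi207 measured 20.1 and 31.1 after saline and 4.15, 3.33 and 9.24 after seizure (-2.20, SE 0.74, adjusted p = 0.675). Zbp1, a sensor of Z-form nucleic acid, measured 2.88 and 6.497 after saline and 0.484, 0.0608 and 0.101 after seizure (-4.55, SE 1.014, adjusted p = 0.121). Libraries did not overlap for 12 of the 40 in the lower direction and 2 in the higher (16.2% and 4.96% over all genes tested). Ifitm3, a membrane protein that restricts virus entry, measured 32.9 and 118 after saline and 22.3, 5.88 and 21.4 after seizure, without overlap (-2.19, SE 0.75, adjusted p = 0.675). Other members did overlap. Isg15, a ubiquitin-like modifier, measured 6.42 and 11.2 after saline and 7.40, 8.86 and 8.02 after seizure, and Bst2, which encodes tetherin, lay between 76.0 and 108 in all 5.

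The MHC class II list had no shared direction. Of its 14 genes, 0 were called, 1 was lower at an unadjusted p under 0.05, and 7 had a positive and 7 a negative log2 difference. The median was -0.04, and it was positive in 3 of the 16 alternative fits. For 4 of the 14 genes, Cd74, H2-Aa, H2-Ab1 and Ciita, the libraries did not overlap in the lower direction (16.2% over all genes tested). In the higher direction this held for 0 (4.96% over all genes tested). Cd74, the invariant chain, measured 1471 and 1129 CPM after saline and 333, 357 and 658 after seizure (-1.53, SE 1.02, adjusted p = 0.882). H2-Aa, which encodes a class II alpha chain, measured 132 and 114 after saline and 15.1, 9.62 and 63.6 after seizure. For both, seizure library 3 lay nearest to saline. H2-DMa, which helps load peptides onto class II molecules, overlapped, at 306 and 389 after saline and 356, 408 and 303 after seizure. In the complement and Fc receptor list, 0 of 24 were called. At an unadjusted p under 0.05, 2 of the 24 were lower (6.86% over all genes tested). C1qc, a chain of the first complement component, measured 1258 and 315 after saline and 1717, 2069 and 3706 after seizure (1.67, SE 0.93, adjusted p = 0.731).

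The lists of lipid, adhesion and cell cycle genes held no called gene. The called genes Itgal, Iqgap1 and Iqgap2 were not members of these lists. The shares of these lists at an unadjusted p under 0.05 are set beside 6.86% lower and 0.482% higher over all genes tested. Among genes with a mean below 0 on the log2 CPM scale the lower share was 15.1%. Of 27 genes of lipid efflux, uptake and storage tested, 0 were called, 5 were lower and 1 higher at an unadjusted p under 0.05. Msr1, a scavenger receptor for modified lipoproteins, measured 7.87 and 21.3 CPM after saline and 0.691, 0.547 and 4.54 after seizure (-2.93, SE 0.88, adjusted p = 0.540). Of 34 genes of actin, motility and adhesion, 0 were called, 7 were lower and 1 higher. Fn1, which encodes fibronectin, measured 12.4 and 32.8 after saline and 0, 0.106 and 0.202 after seizure (-7.69, SE 2.38, adjusted p = 0.618). Pfn1, the actin-binding profilin, was the higher one, at 40.9 and 55.6 after saline and 350, 329 and 75.4 after seizure (2.38, SE 1.12, adjusted p = 0.675). Of 44 cell cycle genes tested, 0 were called and 5 were lower. Mki67, a marker of dividing cells, measured 2.41 and 6.82 after saline and 0.0691, 0.0760 and 0.0505 after seizure (-6.04, SE 2.56, adjusted p = 0.675).

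Among abundant genes, with a mean of at least 4 on the log2 CPM scale and no overlap between the groups, the 6 with the smallest p in the higher direction were Tifa, Srp54c, Rpl13, N4bp2l1, Itm2b and mt-Co3. None was called (adjusted p = 0.675 for each). Tifa, an adaptor in NF-kB signalling, measured 119 and 116 CPM after saline and 316, 275 and 168 after seizure (1.10, SE 0.37). Itm2b, a membrane protein linked to familial dementia, measured 693 and 746 after saline and 2994, 3013 and 1100.2 after seizure (1.72, SE 0.68). In all 6, seizure library 3 was the seizure library nearest to saline. In the lower direction Cybb was followed by Lyz2, Ms4a4c, Clec7a, Ifitm3 and Serinc3, none of them called. Lyz2, the lysozyme of myeloid cells, measured 691 and 3037 after saline and 400.1, 495 and 657 after seizure (-1.85, SE 0.44, adjusted p = 0.191). Ms4a4c, of the monocyte list, measured 20.5 and 93.3 after saline and 13.1, 11.7 and 7.02 after seizure (-2.43, SE 0.68, adjusted p = 0.439). Ifitm3, an antiviral membrane protein, measured 32.9 and 118 and then 22.3, 5.88 and 21.4 (-2.19, SE 0.75, adjusted p = 0.675). Serinc3, a membrane protein with antiviral activity, measured 237 and 735 and then 143, 189 and 198 (-1.46, SE 0.54, adjusted p = 0.675). Apart from Clec7a, these genes were 3 or more times higher in saline library 2 than in saline library 1.

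The same treatment was compared in transplanted microglia (4 seizure, 3 saline libraries) and in transplanted monocyte-derived cells (6 and 3). They too had seizure in batch 1 and saline in batch 2. In transplanted microglia 7 genes were lower (0.0371%) and 0 higher, with 1593 lower (8.44%) and 633 higher (3.36%) at an unadjusted p under 0.05. In monocyte-derived cells edgeR called 0 genes, with 1583 lower (8.39%) and 653 higher (3.46%) at an unadjusted p under 0.05. Cd38, Gpr18, Itgal, Rftn1 and Adam33 were lower in both endogenous and transplanted microglia, 5 of the 20 genes and 5 of the 7. Cd38 had a log2 fold change of -4.22 (SE 0.61, adjusted p = 0.00592) in transplanted microglia and 0.12 (SE 0.47) in monocyte-derived cells. It stood at 55.0 to 110 CPM in monocyte-derived cells and at no more than 3.31 in transplanted microglia.

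The change itself differed from transplanted microglia for 2 genes (0.0106%), both lower in the endogenous cells. For 4930523C07Rik the difference of the log2 fold changes was -9.47 (SE 1.40, adjusted p = 0.0141), with 1.18 (SE 0.79) in transplanted microglia. For Gm37900 it was -8.03 (SE 1.31, adjusted p = 0.0321), with 0.91 (SE 0.77) there. The change differed from monocyte-derived cells for 5 genes (0.0265%), all lower in the endogenous cells. These were Mndal, Cd38, 4930523C07Rik, Gm21188 and Gm36161. For Mndal the difference was -5.45 (SE 0.83, adjusted p = 0.0197). Mndal stood at 103 to 348 CPM in monocyte-derived cells and at no more than 0.629 in transplanted microglia, so that its saline level in endogenous cells lay between the populations. None of these genes reached a mean of 4 on the log2 CPM scale, and they are named after their values were seen. Without saline library 2 neither test called a gene, with 573 and 678 genes at an unadjusted p under 0.05, against 1345 (7.13%) and 1529 (8.1%) with it.

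**Figure D5:**
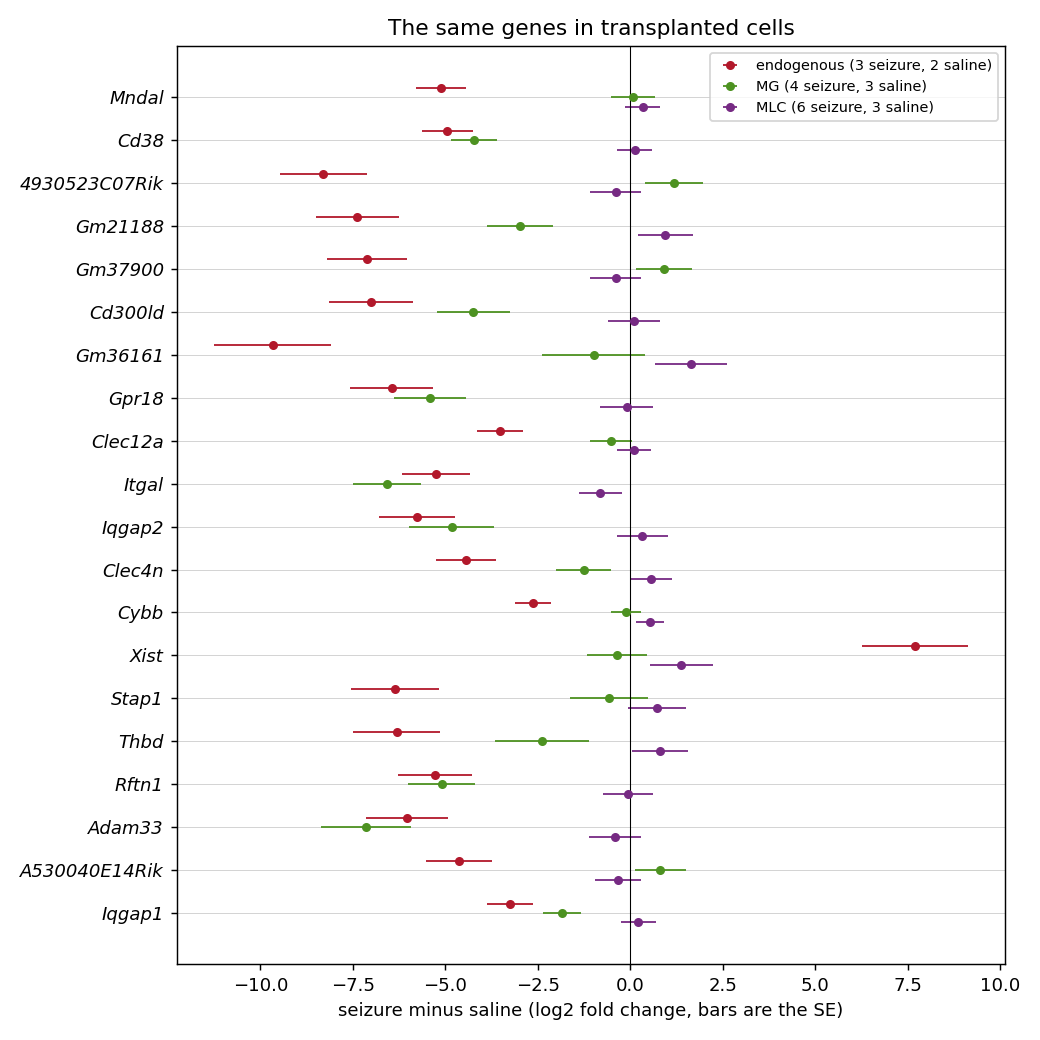
Log2 fold change of seizure against saline (horizontal, bars are the SE) for the 20 called genes in endogenous cells (red), transplanted microglia (MG, green) and monocyte-derived cells (MLC, purple). Cd38, Gpr18, Itgal, Rftn1 and Adam33 lie below 0 in red and green. Several genes lie far below 0 in red alone, among them 4930523C07Rik, Gm37900, Mndal and A530040E14Rik.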

How the data were processed

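The authors deposited estimated counts per gene, which were rounded here to whole counts. The tools named in the submitters' processing notes are Trim Galore 0.6.7 for trimming, STAR 2.7.10a for alignment to GRCm39 and featureCounts for counting. The sources used here do not say what made the counts fractional. The low-input kit amplifies by PCR, and no molecular identifiers are named.

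All 21 libraries entered 1 edgeR 4.0.16 quasi-likelihood fit (R 4.3.3, TMM scaling, robust, 6 group means), after edgeR's low-count filter by group. P values were adjusted by Benjamini-Hochberg over all 18867 genes tested, with a limit of 0.05. Values are TMM-normalised CPM. The SE is the log2 fold change over the square root of its F statistic. DESeq2 1.42.0, limma-voom 3.58.1 and the other alternatives are in the closing section, and the tools were tested on simulated data. There edgeR recovered no change of the smallest size and none in genes of low level, most DESeq2 calls were false and many limma-voom calls were too. The simulated counts used edgeR's own estimates of spread and no changed gene below 0 on the log2 CPM scale. They therefore do not rank the tools on these data. The labels call the samples biological replicates. With 3 against 2 samples an exact two-sided permutation test cannot go below 0.1, so no single value was tested. The comparison and the 38 gene lists were chosen with earlier results of these data known. Genes were named by size (up to 12 called per direction, mean of at least 4 on the log2 CPM scale, no overlap, filled to 6 by smallest p) or as list members. Genes outside this rule are identified as such. The values of 1 homeostatic gene are not reported here.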

Additional observations from a re-analysis of the deposited data

Results flagged for a closer look

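The seizure minus saline change differed between populations, by an interaction term in edgeR, for 6 genes. Against transplanted microglia the log2 fold change of endogenous cells differed by -9.47 for 4930523C07Rik and by -8.03 for Gm37900. Against monocyte-derived cells it differed by -5.45 for Mndal, -5.06 for Cd38, -7.90 for 4930523C07Rik, -8.33 for Gm21188 and -11.31 for Gm36161. Gm36161 had 3 counts over the seizure libraries, so its value is no measured size.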

How the results depend on the processing

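Endogenous cells had 19 lower and 1 higher genes. DESeq2 gave 179 and 39, limma-voom 88 lower, a replicate block 7 and 0, GC correction with the replicate block 6 and 0, and the 5 libraries alone 0 and 0. Both counts were 0 without seizure libraries 1 and 3, and without saline library 2 and seizure library 3 (added after seeing the data). Without a low-count filter 0 were higher. Leaving out 1 library gave 4 to 19 lower and 0 to 1 higher; a lone saline sample is then assumed to vary like the other groups. Genes whose change differed from transplanted microglia numbered 2 (DESeq2 189, limma-voom 27, no filter 4, 0 to 4 without 1 library) and from monocyte-derived cells 5 (208, 40, 9, and 0 to 9). Thinning gave 9 for the latter, and fitting only the 4 groups gave 0 and 23. Both were 0 with the replicate block, with or without GC correction, without seizure libraries 1 and 3, and without saline library 2 and seizure library 3. The replicate numbers did not pair the samples (correlations of deviations -0.14 and 0.01). Without saline library 2 and seizure library 3, Csf1r was -0.77 and Cx3cr1 -0.74; without 1 library Csf1r ranged from -0.093 to 2.42 and Cx3cr1 from -0.18 to 1.42. The cause of these shifts was not tested. Other settings kept counts within 1.5 times. Precision is limited by 2 saline libraries and by genes with few counts.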

Other observations

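Genes of energy and protein production in endogenous microglia did not pass the test between seizure and saline. Of 54 nuclear genes of oxidative phosphorylation 0 were called and 0 were lower or higher at an unadjusted p under 0.05, with a median log2 difference of 0.03. Of 71 ribosomal protein genes 0 were called and 1, Rpl13, was higher at that threshold, with a median of 0.10. Of 40 lysosome and phagocytosis genes tested 0 were called, 0 passed that threshold, and the median was 0.32, between 0.14 and 0.52 over the 16 alternative fits. Ctss, the main lysosomal cysteine protease of these cells, lay between 12454 and 21384 CPM in all 5 libraries.

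Stress and activity genes did not pass it either. Of 23 heat shock and unfolded protein response genes tested 0 were called and 1 was higher at an unadjusted p under 0.05, with a median of 0.29. That gene was Sdf2l1, a partner of chaperones in the endoplasmic reticulum, at 11.1 and 10.7 CPM after saline and 93.6, 68.1 and 27.0 after seizure (2.53, SE 1.04, adjusted p = 0.675). Hspa5, the main chaperone there, lay between 2517 and 2766 in all 5. Of 29 immediate early genes tested 0 were called and 1 was lower at an unadjusted p under 0.05. Fos, an immediate early transcription factor, measured 118 and 59.2 after saline and 67.8, 47.6 and 163 after seizure.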
